A study of Mus musculus with 4 samples.

Results

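The immunoglobulin genes described here are the 41 genes, of 54532 in the count tables, that encode antibody chains or the J chain and held at least 10 counts summed over 4 mouse kidney RNA-seq libraries. Members were chosen by gene symbol (heavy-chain, kappa and lambda constant genes, V segments, and Jchain) and by that total, with pseudogenes left out. The total did not use the genotype labels, but a segment could reach it through a single library. Of 249 genes with such a symbol, the members were 7 of 8 heavy-chain constant genes, Igkc, 3 of 4 lambda constant genes, 7 of 115 heavy V segments, 20 of 100 kappa V segments, 2 of 3 lambda V segments, none of 17 D segments, and Jchain. Just inside the minimum were Ighv1-84, Ighv14-3, Igkv3-4 and Igkv4-72 with 10 counts each, and just outside it were Ighv1-81, Ighv5-6 and a kappa segment with 9 counts each.

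Kidney RNA of Zbp1-/- mice (Zbp1-KO below) was set against that of wild-type (WT) mice, 2 libraries each, in a lupus-like model in which pristane, a hydrocarbon oil that provokes autoantibodies, had been injected. All mice had a C57BL/6J background, were female by the study's description of the model, received 500 µL pristane into the peritoneum at 8 weeks of age, and were sampled 8 months later. The Zbp1-KO line is a germline deletion of exons 2 to 8 of Zbp1, a sensor of nucleic acids, made with CRISPR-Cas9, while the WT mice were purchased from a supplier, so genotype and source of the mice cannot be told apart. No mouse without pristane was analysed here, and every value below is therefore from a pristane-treated kidney.

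Library totals ranged from 9878776 to 12921925 counts, of which 49.5 to 61.5% lay on mitochondrially encoded genes, so immunoglobulin content is given as a share of the other 4003417 to 5782924 counts. The targeted gene Zbp1 held 94 and 125 counts in WT 1 and WT 2 and 18 and 0 counts in Zbp1-KO 1 and Zbp1-KO 2, which is the direction of the labels. Kidney markers were present in all 4 libraries, with Slc34a1, the phosphate transporter of the proximal tubule, at 923, 1032, 529 and 995 CPM (TMM-normalised counts per 1e6 library counts). Of 8 fat markers, 7 were tested and 1 was called (Cfd, below), and their CPM values summed to 168 in WT 1, 189 in WT 2, 333 in Zbp1-KO 1 and 305 in Zbp1-KO 2.

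An antibody is built from heavy chains and light chains, each with a variable part assembled from V, D and J segments (V and J for light chains) and a constant part taken from a constant gene. The constant gene of the heavy chain sets the isotype: Ighm and Ighd encode IgM and IgD of naive B cells, and class switching replaces them with Ighg1, Ighg2b, Ighg2c or Ighg3 (IgG), Igha (IgA) or Ighe (IgE). Each B-cell clone carries its own V segments, plasma cells make by far the most immunoglobulin mRNA of any cell, and IgG deposited in glomeruli is a hallmark of lupus nephritis. Whole kidney was sequenced here, so more antibody-making cells and more antibody mRNA per cell cannot be told apart.

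The ends of the member V segments that led each library are shown because this is the stretch that identifies a segment and joins the next one. For each library the kappa V segment with the most counts is given first. Each run is the last 60 bases of the germline segment, 5′ to 3′ on the coding strand, from the GENCODE M21 transcripts (GRCm38), and capitals mark the last in-frame cysteine codon, just before the part that varies most between antibodies. Igkv1-110 (chr6:68271208-68271267, plus strand) led WT 1 and Igkv3-2 (chr6:70699008-70699067, plus) led WT 2. Igkv9-124 (chr6:67942074-67942133, minus) led Zbp1-KO 1 together with Igkv3-2, and Igkv5-39 (chr6:69900424-69900483, minus) led Zbp1-KO 2. Igkv6-15 (chr6:70406469-70406528, minus) is added because nearly all of its counts came from WT 1.
Igkv1-110: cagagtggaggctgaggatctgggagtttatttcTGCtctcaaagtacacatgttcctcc
Igkv3-2: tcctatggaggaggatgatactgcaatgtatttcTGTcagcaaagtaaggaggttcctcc
Igkv9-124: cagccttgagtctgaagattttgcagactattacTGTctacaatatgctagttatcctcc
Igkv5-39: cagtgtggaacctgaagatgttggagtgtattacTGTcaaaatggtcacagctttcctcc
Igkv6-15: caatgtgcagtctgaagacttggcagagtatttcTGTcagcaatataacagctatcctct

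The leading heavy V members were Ighv5-9-1 in WT 1 (chr12:113736111-113736170), Ighv6-6 in WT 2 (chr12:114434788-114434847), Ighv1-84 in Zbp1-KO 1 (chr12:115980702-115980761) and Ighv14-3 in Zbp1-KO 2 (chr12:114059845-114059904), all on the minus strand and printed by the same convention.
Ighv5-9-1: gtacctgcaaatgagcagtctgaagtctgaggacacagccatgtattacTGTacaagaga
Ighv6-6: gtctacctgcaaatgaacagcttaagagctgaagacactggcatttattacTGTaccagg
Ighv1-84: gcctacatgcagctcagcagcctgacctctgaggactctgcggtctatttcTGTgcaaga
Ighv14-3: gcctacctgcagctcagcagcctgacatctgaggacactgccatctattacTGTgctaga

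In the 5 kappa segments the codon stood 23 bases from the end, and any pair matched at 32 to 44 of the 60 bases without gaps. Sharing with other V segments limits how reads could be assigned. Each member V segment was set against the transcripts of every other annotated immunoglobulin gene, pseudogenes included. The longest run of identical bases ranged from 16 to 253 bases (median 96). It was at least 150 bases for 3 of 29, Igkv6-20 (253), Igkv5-43 (193) and Igkv3-5 (159). Counts of those 3 segments are the least certain of the V values below.

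Immunoglobulin mRNA was abundant in 1 WT kidney and lower in the other 3, with no separation of the genotypes. The 41 genes held 0.372% of the non-mitochondrial counts in WT 1 (95% Wilson interval 0.367 to 0.377%, 19954 counts) and 0.0849% in WT 2 (0.0824 to 0.0875%, 4226 counts). They held 0.112% in Zbp1-KO 1 (0.110 to 0.115%, 6503 counts) and 0.182% in Zbp1-KO 2 (0.178 to 0.186%, 7276 counts). The WT libraries were the highest and the lowest of the 4, and both Zbp1-KO libraries lay between them. The WT values were 4.38-fold apart and the Zbp1-KO values 1.62-fold apart, far outside the intervals, which cover counting error only.

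The mean share was 0.229 ± 0.203% in WT and 0.147 ± 0.0490% in Zbp1-KO (SD, n = 2 libraries each), a ratio of 0.644, with p = 1.0 in an exact two-sided permutation test. With 2 libraries against 2 that test cannot go below 0.333. WT 1 set the direction: without it, the Zbp1-KO mean was 1.73-fold the value of WT 2. Hemoglobin and heme-synthesis genes of red cells (Hba-a1, Hba-a2, Hbb-bs, Hbb-bt and Alas2) moved in a similar order, with summed levels of 2549 CPM in WT 1, 819 in WT 2, 818 in Zbp1-KO 1 and 2121 in Zbp1-KO 2. The part of blood content in the immunoglobulin values was not tested.

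**Figure D1:**
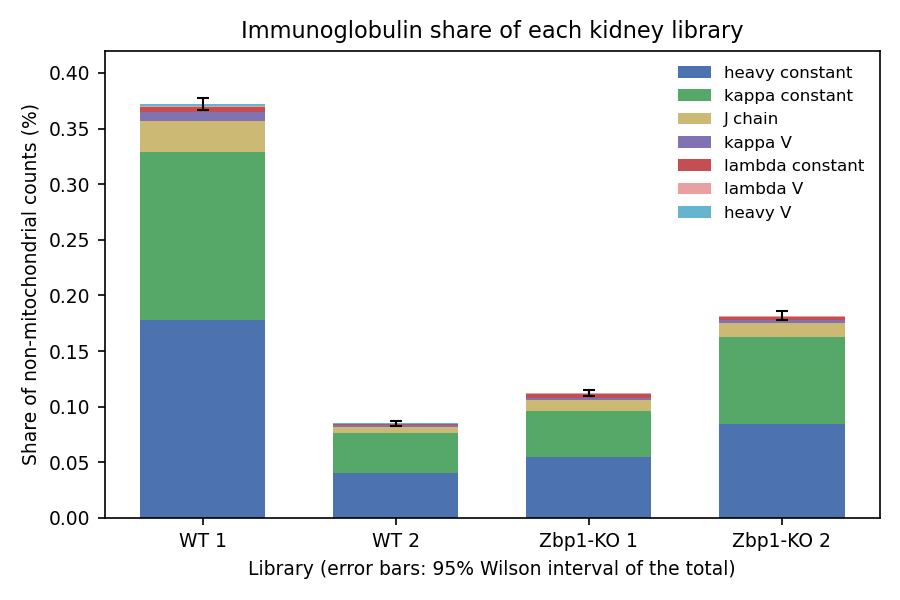
Immunoglobulin share of the non-mitochondrial counts (%, vertical axis) in each of the 4 kidney libraries (horizontal axis), stacked by class of gene, with the 95% Wilson interval of the total as the error bar. WT 1 stands at 0.372%, the other 3 libraries between 0.0849 and 0.182%, and heavy-chain and kappa constant genes fill most of each bar.

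The classes with the most counts kept similar parts of the immunoglobulin total, while lambda did not. Heavy-chain constant genes held 47.7, 47.1, 48.8 and 46.6% of the immunoglobulin counts in WT 1, WT 2, Zbp1-KO 1 and Zbp1-KO 2, the order used for all lists of 4 values below. Igkc, the single kappa constant gene, held 40.7, 42.3, 36.2 and 42.8%. Jchain, whose product links IgA dimers and IgM pentamers, held 7.32, 6.53, 8.90 and 6.91%. These shares spanned narrow ranges while the total ranged 4.38-fold, and Zbp1-KO 1 had the lowest Igkc and the highest Jchain share. The lambda constant genes held 1.05, 1.56, 3.52 and 1.28% and the lambda V segments 0.451, 0.0710, 0.507 and 0.440%, with Zbp1-KO 1 highest in both and WT 2 lowest in lambda V.

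Light-chain constant counts per heavy-chain constant count were 0.876, 0.931, 0.815 and 0.947, so the WT values fell between those of Zbp1-KO (exact permutation p = 1.0). Jchain counts per heavy-chain constant count were 0.153, 0.139, 0.182 and 0.148. The genotypes overlapped in this ratio (exact permutation p = 0.667). Set against Igha and Ighm alone, the isotypes whose polymers the J chain joins, Jchain stood at 0.201, 0.167, 0.238 and 0.238 per count. Both Zbp1-KO libraries lay above both WT libraries in this ratio, a separation that was not tested.

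V segments gave few counts beside the constant genes. All kappa V segments together held 6.70, 7.83, 5.73 and 4.72 counts per 100 counts of Igkc, from 545, 140, 135 and 147 counts. Heavy V segments held 1.35, 2.46, 1.01 and 1.09 counts per 100 heavy-chain constant counts, from 129, 49, 32 and 37 counts. In both chains WT 2 had the highest V ratio, and both WT libraries lay above both Zbp1-KO libraries. This separation was not tested, and with 2 libraries against 2 an exact permutation p cannot go below 0.333. Lambda V segments held 43.1, 4.55, 14.4 and 34.4 counts per 100 lambda constant counts, a wider range that rests on 90, 3, 33 and 32 V counts.

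Igha had the most counts of the heavy-chain constant genes in every library. Of the heavy-chain constant counts (9524, 1990, 3173 and 3390), Igha held 72.3, 62.0, 67.9 and 56.3%. Divided by exon length, Igha was still the largest single gene at 61.1, 54.0, 59.6 and 45.3%. On that scale the IgG genes together (34.1, 18.2, 28.8 and 47.7%) exceeded it in Zbp1-KO 2. That order rests on the annotated exon lengths, 1326 bases for Ighg2c against 2512 to 2678 for the other IgG genes and 2668 for Igha. By counts alone, Igha held 56.3% and the IgG genes together 37.6% in Zbp1-KO 2. The Igha shares of the genotypes overlapped, with WT 1 highest and Zbp1-KO 2 lowest on both scales.

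Ighg2c, the IgG subclass gene that C57BL/6 mice carry in place of Ighg2a, had the most counts of the IgG genes in every library, though in WT 2 by only 105 to 103 counts over Ighg2b. It held 16.5, 5.28, 9.52 and 21.3% of heavy-chain constant counts, or 28.1, 9.25, 16.8 and 34.5% per exon length. The lowest and the second highest value were both WT, so the genotypes overlapped. Ighg2b, another IgG2 subclass, held 6.01, 5.18, 5.26 and 9.41%, and only Zbp1-KO 2 stood apart.

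Ighg1 held 0.808, 4.77, 4.19 and 6.05%, and WT 1, the library richest in immunoglobulin, was the one with little Ighg1. Ighg3, a subclass typical of responses that need less T-cell help, held 0.378, 0.201, 3.88 and 0.767%. It was the isotype whose shares did not overlap between genotypes, both Zbp1-KO values lying above both WT values (exact permutation p = 0.333, the smallest possible here, and 0.762 after Benjamini-Hochberg adjustment over the 8 isotype comparisons). The difference of 2.03 percentage points came mainly from the 123 Ighg3 counts of Zbp1-KO 1, against 36, 4 and 26 in the others.

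IgM took very different parts of the libraries. Ighm held 3.84, 20.95, 8.76 and 6.11% of heavy-chain constant counts, so WT 2 had the highest and WT 1 the lowest share. Ighd, the IgD gene that naive B cells co-express with Ighm, followed with 0.168, 1.66 and 0.536% in the first 3 libraries, while Zbp1-KO 2 had 0 of 3390 counts, which allows a share of up to 0.0885%. Ighe, the IgE gene, had 0 counts in every library, which allows up to 0.0315 to 0.151% of heavy-chain constant counts.

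All IgG genes together held 23.7, 15.4, 22.8 and 37.6% of the heavy-chain constant counts. Zbp1-KO exceeded WT by 10.6 percentage points on average, a difference with an exact permutation p of 0.667 (0.762 after adjustment), and WT 1 lay above Zbp1-KO 1. Within IgG, the ratio of Ighg2c to Ighg1 counts was 20.4 in WT 1 (95% interval 16.2 to 25.7) but 1.11 in WT 2, 2.27 in Zbp1-KO 1 and 3.53 in Zbp1-KO 2. Ighg3 made up 17.0% of the IgG counts of Zbp1-KO 1 and 1.30 to 2.04% of those of the other 3 libraries. The subclass profile set WT 1 and Zbp1-KO 1 apart from the other libraries, each by a different gene.

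**Figure D2:**
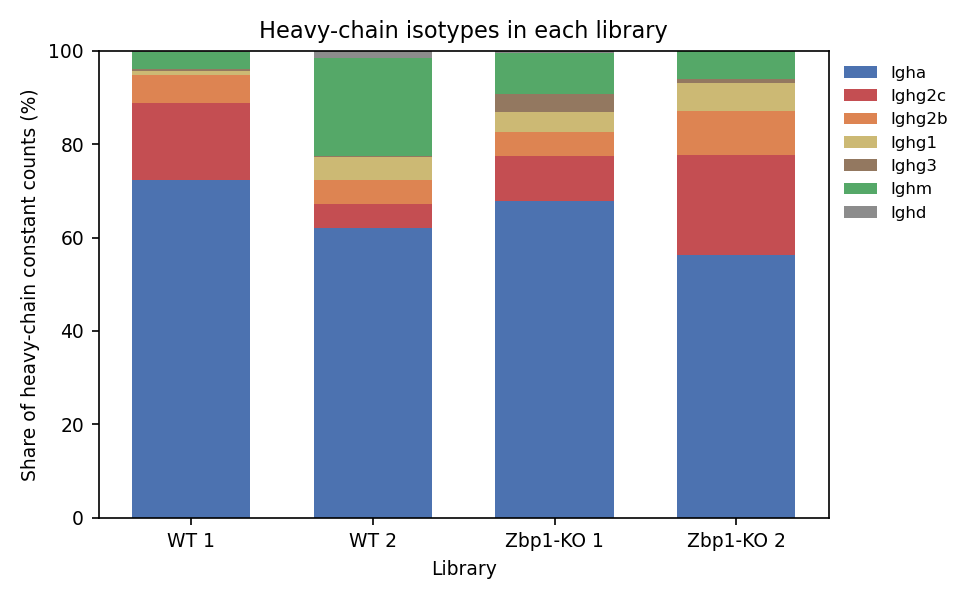
Share of the heavy-chain constant counts (%, vertical axis) held by each isotype gene in each library (horizontal axis), from counts not divided by gene length. Igha fills 56.3 to 72.3% of every bar, Ighm is widest in WT 2 (20.95%), Ighg2c in Zbp1-KO 2 (21.3%), and Ighg3 is visible mainly in Zbp1-KO 1 (3.88%).

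By constant counts, kappa light chains far outnumbered lambda, and the balance differed in 1 library. Member V counts gave another pattern, with 90, 3, 33 and 32 lambda counts beside 465, 92, 111 and 129 kappa counts. There WT 2 had the least lambda for its kappa. Lambda constant genes held 2.51% (95% Wilson interval 2.19 to 2.86%), 3.56% (2.81 to 4.51%), 8.86% (7.82 to 10.01%) and 2.90% (2.37 to 3.54%) of the light-chain constant counts. Zbp1-KO 1 lay above the others beyond counting error, and Zbp1-KO 2 lay between the WT libraries. The genotype means were 3.03 ± 0.746% and 5.88 ± 4.21% (SD, n = 2 each; exact permutation p = 0.667), and without Zbp1-KO 1 the difference of 2.84 percentage points became -0.136.

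The lambda constant genes are near copies of each other in part, and 60 bases from a shared starting stretch are shown to make plain which of them reads can separate. The runs come from the GENCODE M21 transcripts of Iglc1 (chr16:19061618-19062071), Iglc2 (chr16:19198396-19200351) and Iglc3 (chr16:19065230-19065681), with the positions of the whole genes, all on the minus strand. Each run was set to begin at a stretch that these genes share, so its opening bases are identical by choice. Capitals mark bases that differ from Iglc1.
Iglc1: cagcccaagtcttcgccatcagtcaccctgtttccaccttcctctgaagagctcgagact
Iglc2: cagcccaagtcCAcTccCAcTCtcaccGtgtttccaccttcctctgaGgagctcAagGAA
Iglc3: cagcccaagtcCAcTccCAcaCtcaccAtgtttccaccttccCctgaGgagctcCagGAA

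Iglc2 and Iglc3 each differed from Iglc1 at 13 of these bases and from each other at 4. Over 300 bases from the same start, Iglc2 and Iglc3 were identical at 289 positions, against 169 and 172 for Iglc1 with each of them, compared without gaps. In such a comparison an inserted or missing base puts all later positions out of step, so 169 and 172 may understate the similarity. Iglc1 counts were 78, 46, 128 and 55 and Iglc2 counts were 120, 18, 101 and 38. Iglc3, which reads of Iglc2 could reach or leave, held 11, 2, 0 and 0 counts, and Iglc4 had none.

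The V segments of lambda split by library. Iglv1 held 85, 3, 10 and 32 counts, and Iglv3 held 5, 0, 23 and 0. In Zbp1-KO 1, the library with the high lambda share, Iglv3 led, while in the other 3 libraries Iglv1 did.

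The kappa V segments were used with different weights in the 4 libraries. Of the 10 to 15 kappa members with a count in a library, 7 to 11 also had a count in any other given library. Igkv1-110 held 112, 5, 17 and 5 counts, which is 20.6, 3.57, 12.6 and 3.40% of the kappa V counts. Igkv6-15 held 106, 0, 0 and 1 counts, so its 19.4% of WT 1 had almost no counterpart elsewhere. Igkv9-124 held 2, 0, 26 and 1 counts, a segment of Zbp1-KO 1. These leading segments were high in 1 library each, and their genotype groups overlapped.

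Other segments were shared across genotypes. Igkv5-39 held 46, 0, 0 and 22 counts and Igkv5-43 held 47, 0, 0 and 13 counts, both present in WT 1 and Zbp1-KO 2 and at 0 in the other 2 libraries. Igkv3-2 held 1, 17, 26 and 13 counts and was nearly missing from WT 1. Igkv6-32 held 49, 12, 0 and 4 counts, with both Zbp1-KO libraries below both WT libraries. Igkv12-44 held 39, 3, 0 and 4 counts and Igkv10-96 held 27, 6, 2 and 9 counts, both highest in WT 1.

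Among heavy V segments, Ighv5-9-1 (29, 0, 0 and 0 counts) and Ighv2-6 (28, 0, 0 and 0 counts) were seen in WT 1 alone, where each was over 20% of the heavy V counts (22.5% and 21.7%). Ighv3-6 was the exception, with 6, 5, 4 and 3 counts and hence a count in every library. Ighv1-26 held 4, 0, 7 and 4 counts and Ighv6-6 held 5, 7, 0 and 0. Ighv1-84 was confined to Zbp1-KO 1 with 10 counts, and Ighv14-3 held 4, 0, 0 and 6. At these numbers a count of 0 does not show that a segment was absent.

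WT 1 alone held 631 of the 1077 counts of the 29 V members (58.6%), so the libraries were weighted equally by taking each segment's share of its chain's V counts. On this scale 24 of the 29 had most of their summed shares in 1 library and 14 had at least 75% there, whereas 6 had a count in each of the 4 libraries. The leading library by share was WT 1 for 6 of them, WT 2 for 6, Zbp1-KO 1 for 8 and Zbp1-KO 2 for 9. Shares that rest on few counts carry wide counting error, and the total of at least 10 counts that chose the members admits more segments from WT 1. That total can also be reached in a single library, and 5 of the 29 had counts in 1 library only. The choice of members and the low counts thus favour segments gathered in 1 library, and gathering beyond this was not tested. Of the constant genes and Jchain, 12 together and mostly with far more counts, 10 had counts in all 4 libraries. By family, Igkv6 segments made up 31.6, 24.3, 8.15 and 5.44% of the kappa V counts, and Igkv3 segments 2.57, 12.1, 21.5 and 21.8%. The Igkv6 share was higher in both WT libraries and the Igkv3 share in both Zbp1-KO libraries. Igkv5 segments (18.9, 0, 0 and 23.8%) crossed the genotypes. Igkv2, Igkv17 and Igkv19, with fewer counts, were also higher in both WT libraries, and the remaining kappa families overlapped. Of all genes tested, 32.3% had CPM values that did not overlap between genotypes in either direction. In WT 1, Igkv6-15 alone gave 106 of the 172 Igkv6 counts.

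Across the 20 kappa members, the shares in any 2 libraries had Pearson correlations from -0.26 to 0.18, given as a description since segments are not replicates and all points of a library share its depth. The overlap of the share profiles, the summed smaller share of each segment, ranged from 23.1 to 38.8%. The libraries of 1 genotype overlapped by 31.1% (WT) and 26.4% (Zbp1-KO), inside the range between genotypes.

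The effective number of kappa V segments (the unbiased inverse Simpson index, which is low when few segments dominate) was 6.61, 9.28, 5.89 and 11.1. WT and Zbp1-KO means were 7.94 ± 1.89 and 8.52 ± 3.71 (SD, n = 2 each; exact permutation p = 1.0), with the Zbp1-KO libraries the lowest and the highest. The 3 leading segments held 57.4, 48.9, 65.8 and 40.3% of the kappa member counts. Brought to an equal depth of 92 counts, 11.3, 13, 9.91 and 14.4 of the 20 segments would have had a count. For heavy V segments the index of 3.47, 2.13, 2.92 and 3.25 rests on 76, 12, 21 and 13 counts, too few to rank the libraries.

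**Figure D3:**
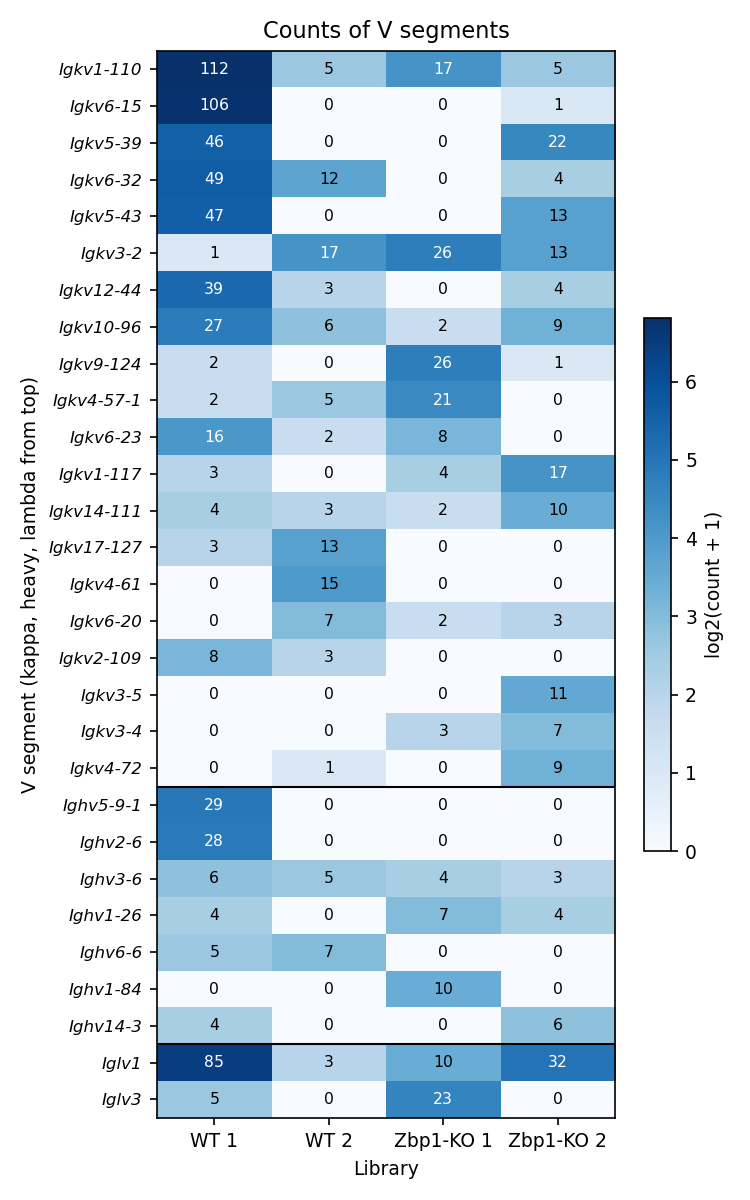
Counts of the 29 member V segments (rows, kappa, heavy and lambda from the top) in each library (columns), with the count printed in each cell and the shade giving log2(count + 1). Most rows are dark in 1 column, such as Igkv6-15 in WT 1 (106 counts) and Igkv9-124 in Zbp1-KO 1 (26 counts), and Ighv3-6 is among the few with a count in every column.

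For the comparison of genotypes gene by gene, 18 of the 41 members passed the filter on low counts: 7 heavy-chain constant genes, Igkc, Iglc1, Iglc2, 6 kappa V segments, Iglv1 and Jchain. The other 23, among them every heavy V segment and Iglc3, were not tested. With edgeR's quasi-likelihood test and a threshold of 0.05 on the adjusted p, none of the 18 was called. Of 14908 genes tested, 0.0134% were called, and every member had an adjusted p of 0.999. The deleted gene Zbp1 was not called either (log2 fold change -3.64, edgeR unadjusted p = 0.00153, adjusted p = 0.999). The lack of a call here therefore does not show that a gene was unchanged. At an unadjusted p under 0.05, Ighg1 was higher and Ighm and Igkv6-32 were lower in Zbp1-KO, against 1.91% of all genes higher and 1.97% lower.

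By fold change, 5 of the 18 stood above 0 and 13 below, with a median of -0.64 on the log2 scale beside -0.0061 over all genes tested. That median followed WT 1: without this library 15 of 18 were above 0 and the median was 1.00. The CPM values did not overlap between genotypes for 1 member higher in Zbp1-KO (Ighg1) and 3 lower (Ighm, Ighd and Igkv6-32), and 16.0% and 16.3% of all genes tested showed the same.

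Ighg1 had 6.19, 8.13, 9.81 and 22.1 CPM, with both Zbp1-KO libraries above both WT libraries and Zbp1-KO 2 farthest. Its log2 fold change was 1.15 ± 0.41 (SE; edgeR unadjusted p = 0.0159, adjusted p = 0.999). Ighm had 29.4, 35.7, 20.5 and 22.3 CPM, the narrowest spread of the isotypes, with Zbp1-KO below WT. Its log2 fold change was -0.61 ± 0.23 (edgeR unadjusted p = 0.0223, adjusted p = 0.999). Neither difference passed the adjustment. Both kept their direction when any single library was left out, which follows from the lack of overlap and adds no further evidence.

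Ighg3 had 2.90, 0.342, 9.07 and 2.80 CPM, and WT 1 lay just above Zbp1-KO 2. The log2 fold change of 1.87 ± 0.88 (edgeR unadjusted p = 0.0565) thus came from the low WT 2 and the high Zbp1-KO 1. Ighd had 1.29, 2.82, 1.25 and 0 CPM and a log2 fold change of -1.64 ± 1.38, on 16, 33, 17 and 0 counts. Its WT 1 and Zbp1-KO 1 values were nearly the same.

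The genes with the most counts mirrored the total. Igha had 554, 105, 159 and 206 CPM and Igkc 654, 153, 174 and 336 CPM, with log2 fold changes of -0.86 ± 0.51 and -0.66 ± 0.49. Jchain (chr5:88519809-88527891), at 117, 23.6, 42.7 and 54.2 CPM, gave -0.55 ± 0.50. All 3 genes were highest in WT 1 and lowest in WT 2, and without WT 1 their log2 fold changes were 0.79, 0.74 and 1.03.

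Ighg2c had 126, 8.98, 22.3 and 77.9 CPM, the widest range among the IgG genes other than Ighg3, and a log2 fold change of -0.45 ± 0.80. Ighg2b had 46.0, 8.81, 12.3 and 34.4 CPM and a log2 fold change of -0.25 ± 0.59. Both were high in WT 1 and Zbp1-KO 2 and low in WT 2 and Zbp1-KO 1, as were the red-cell genes named above. Without WT 1 their log2 fold changes were 2.47 and 1.40.

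Of the light-chain genes, Iglc1 had 6.27, 3.93, 9.44 and 5.92 CPM (log2 fold change 0.59 ± 0.47) and Iglc2 had 9.65, 1.54, 7.45 and 4.09 CPM (0.05 ± 0.70), both overlapping. Iglv1 had 6.84, 0.257, 0.737 and 3.45 CPM (-0.79 ± 1.14). Igkv1-110 had 9.01, 0.428, 1.25 and 0.539 CPM, a log2 fold change of -2.36 ± 1.13 that turned to 1.06 without WT 1. Igkv6-32 had 3.94, 1.03, 0 and 0.431 CPM and a log2 fold change of -3.59 ± 1.52 (edgeR unadjusted p = 0.0364, adjusted p = 0.999). The remaining tested kappa segments, Igkv3-2 (1.11), Igkv5-39 (-0.68), Igkv10-96 (-1.30) and Igkv5-43 (-1.48), had log2 fold changes smaller than their standard errors.

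**Figure D4:**
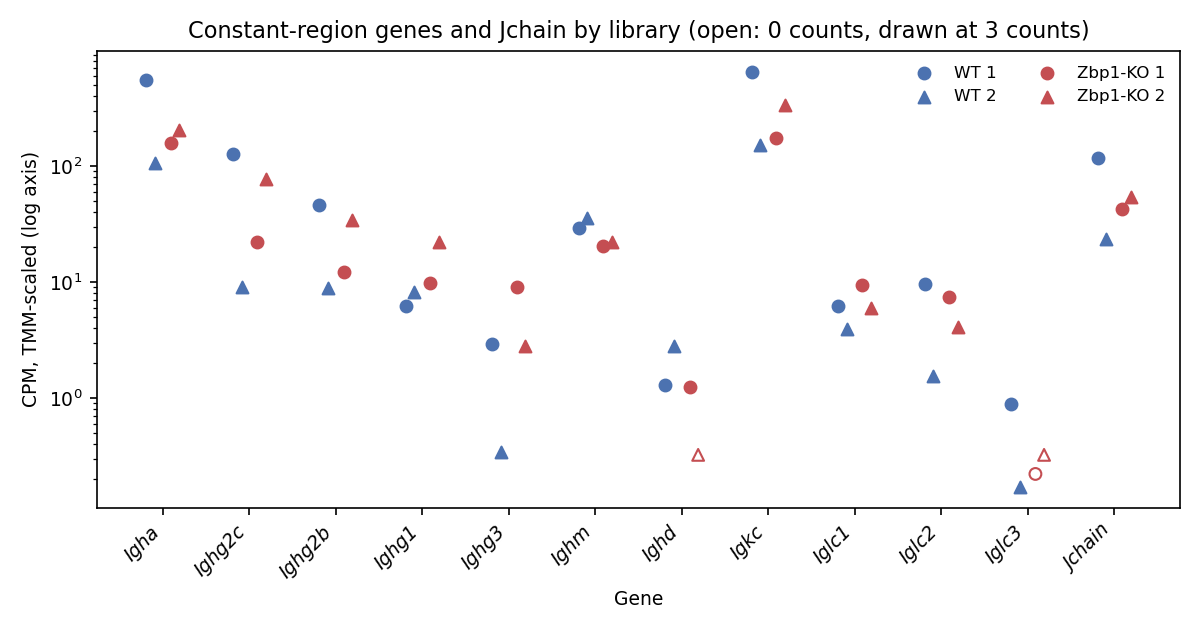
Levels of the constant genes and Jchain (CPM after TMM scaling, log axis) in each library, with circles for replicate 1, triangles for replicate 2 and open symbols for 0 counts, drawn at 3 counts. Igha, Igkc and Jchain are highest in WT 1 and lowest in WT 2, while Ighm lies between 20.5 and 35.7 CPM in all 4 libraries.

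**Figure D5:**
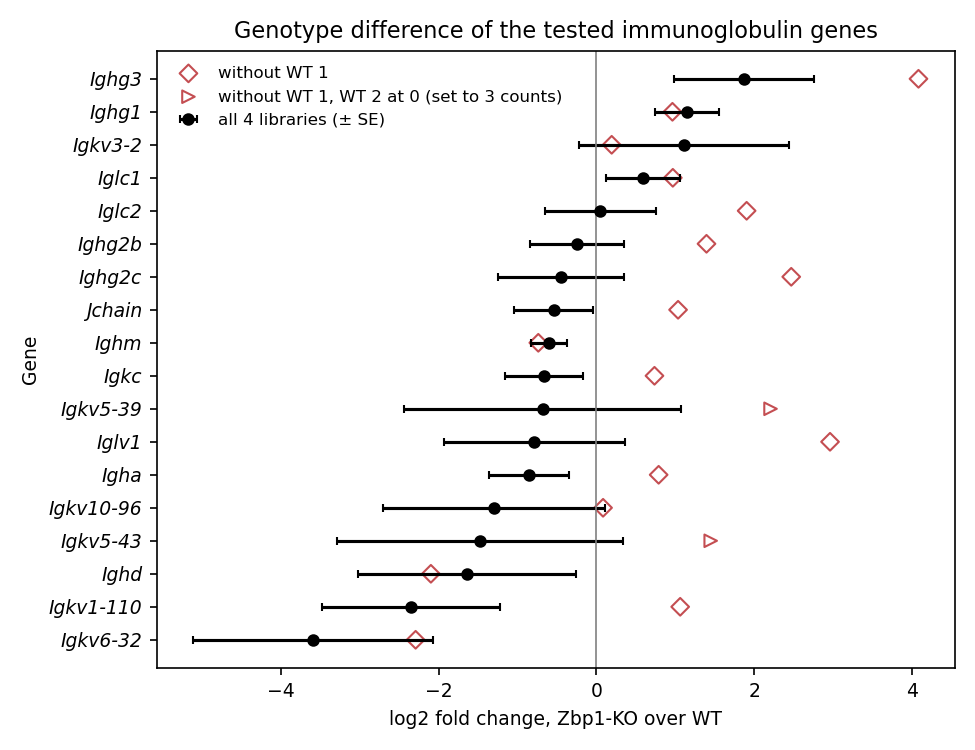
Log2 fold change of Zbp1-KO over WT (horizontal axis) for the 18 tested immunoglobulin genes (vertical axis), with all 4 libraries (filled circles, bars are SE) and without WT 1 (open diamonds, or triangles where WT 2 had no count and was set to 3 counts). With all libraries 13 of 18 lie below 0, and without WT 1 most lie above 0, Ighm, Ighd and Igkv6-32 staying below. The CPM values of the genes staying below did not overlap between genotypes, which fixes their side.

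Of 18 genes listed for antibody-secreting plasma cells, 14 were tested and none was called, and their median log2 fold change was -0.01. Their summed level of 237, 227, 236 and 237 CPM was carried by genes that other cells also express, first of all Txndc5 (1082, 790, 896 and 788 counts), a protein-folding enzyme of the endoplasmic reticulum that was named after its values were seen, and Xbp1. Mzb1, a chaperone for antibody assembly, had 4.74, 4.62, 5.83 and 6.25 CPM, and Xbp1, the regulator of the secretory program, had 59.4, 66.6, 68.9 and 54.4 CPM. Neither was raised in WT 1. Sdc1, the plasma-cell surface marker that epithelium shares, had 13.5, 10.1, 13.5 and 6.57 CPM.

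Of the plasma-cell genes with few counts, some were highest in WT 1. Irf4, a transcription factor of plasma-cell differentiation, had 33, 0, 2 and 5 counts, and Derl3, of the pathway that removes misfolded proteins from the endoplasmic reticulum, had 23, 1, 0 and 0. These counts came largely from the library with the most immunoglobulin. Tnfrsf17, the receptor BCMA, had 1, 1, 0 and 0 counts, Prdm1 (Blimp-1) had 13, 5, 8 and 14 and Pou2af1, a coactivator at immunoglobulin promoters, had 8, 8, 6 and 16. Ell2, an elongation factor used in the switch to secreted antibody, was the 1 listed gene under an unadjusted p of 0.05, with 8.52, 7.95, 17.0 and 14.9 CPM (log2 fold change 0.95 ± 0.31, edgeR unadjusted p = 0.00991, adjusted p = 0.999). It was named after its values were seen.

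Of 18 B-cell genes listed, 9 were tested and none was called, with a median log2 fold change of -0.29. The best counted, named after their values were seen, were Blnk (238, 184, 226 and 168 counts), an adaptor of B-cell receptor signalling, Ebf1 (184, 210, 169 and 134) and Cd72 (104, 134, 128 and 128). These 3 varied little between the libraries, and the other listed genes had fewer than 50 counts in each. Which cells of the whole kidney gave the counts of these 3 was not tested, so they do not measure B-cell content. Ms4a1, which encodes CD20, had 7, 0, 0 and 0 counts. The receptor subunit genes Cd79a (19, 6, 0 and 0 counts) and Cd79b (13, 47, 8 and 5 counts) had more counts in each WT than in each Zbp1-KO library. Cd79b was highest in WT 2, the library with the highest Ighm and Ighd shares. Pax5, the B-lineage regulator, had 14, 20, 24 and 16 counts and Cr2, a complement receptor, 46, 10, 20 and 21. In CPM, Pax5 (1.13, 1.71, 1.77 and 1.72) lay the other way from Cd79a and Cd79b, with both Zbp1-KO libraries above both WT libraries. Of the 9 genes tested, CPM values did not overlap for 1 higher in Zbp1-KO (Pax5) and 3 lower, Cd79b among them. The shares over all genes tested were 16.0% higher and 16.3% lower.

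Among 10 germinal-centre and class-switching genes, 6 were tested and none was called. Bcl6, the germinal-centre regulator that other cells also express, had 196, 289, 454 and 141 counts. Gcsam, a germinal-centre B-cell gene that was named after its values were seen, had 0, 0, 14 and 43 counts (edgeR unadjusted p = 0.00228, adjusted p = 0.999).

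The receptors that carry or bind antibody did not pass the adjusted test either, with 9 of 10 tested and a median log2 fold change of 0.37. Pigr, which ferries polymeric IgA and IgM across epithelium, had 23.4, 32.5, 37.6 and 61.8 CPM, both Zbp1-KO libraries being above both WT libraries (log2 fold change 0.83 ± 0.27, edgeR unadjusted p = 0.00988, adjusted p = 0.999). Fcgrt, the neonatal Fc receptor that recycles IgG, had 78.3, 59.5, 52.0 and 67.8 CPM. Of the Fc gamma receptors of myeloid cells, Fcgr1 had 3.86, 3.76, 9.44 and 4.52 CPM, Fcgr2b, the inhibitory one, 28.6, 17.9, 20.6 and 25.4, Fcgr3 12.4, 4.96, 10.7 and 11.8, and Fcgr4 6.11, 5.82, 5.75 and 7.00. Fcgr1 alone of these 4 had no overlap, Zbp1-KO lying above WT. Of the 9 receptors tested, 4 had no overlap and were higher in Zbp1-KO, and none was lower. They were Pigr, Fcgr1, Fcer1g and Trim21, the last 2 named after their values were seen. The shares over all genes tested were 16.0% higher and 16.3% lower.

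Of 16 genes for survival and homing of antibody-secreting cells, 7 were tested and none was called, with a median log2 fold change of -0.02 that was 1.33 without WT 1 and 0.55 without Zbp1-KO 2. Tnfsf13b (BAFF), a survival factor for B cells, had 4.26, 1.88, 6.42 and 3.02 CPM. Cxcl13, the chemokine that draws B cells into follicles, had 2.01, 1.54, 6.12 and 2.05 CPM and was highest in Zbp1-KO 1, the library with most Ighg3 and lambda. Cxcl12, which retains plasma cells in their niches, had 168, 224, 188 and 198 CPM. Tnfsf13 (APRIL) had 0, 0, 3 and 0 counts and Il6 had 3, 0, 0 and 0.

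T-cell genes lay above 0 for 11 of 11 tested (median log2 fold change 1.20) with none called. Of all 14908 genes tested, 7366 lay above 0, with a median of -0.0061. The 14 listed T-cell genes summed to 18.2, 15.6, 36.4 and 33.9 CPM. Of those tested, 5 did not overlap and were higher in Zbp1-KO and none was lower, against 16.0% and 16.3% of all genes tested. Of the fat genes, Cfd, an adipocyte protease, was called at 14.4, 19.8, 83.7 and 73.3 CPM (log2 fold change 2.20, edgeR adjusted p = 0.00889). The part of T cells and fat in the immunoglobulin values was not tested.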

How the data were processed

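Kidney polyA RNA of pristane-injected WT and Zbp1-KO mice was sequenced, with 2 libraries per genotype. The authors deposited raw counts per gene, made from uniquely mapped read pairs with HISAT2 and featureCounts on mm10. Program versions, annotation release and strand setting are not given in the sources used here. Of the gene identifiers, 54495 were matched to GENCODE M21 (GRCm38) for symbols, types, lengths and transcript sequences, and 37 were not. Groups and replicate numbers came from the sample titles. Replicate numbers name the mice and nothing pairs them across genotypes, and p-values measure the spread between these libraries.

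Counts were tested with edgeR 4.0.16 (R 4.3.3; TMM, filterByExpr with a minimum count of 10 and total of 15, glmQLFit and glmQLFTest, Benjamini-Hochberg over all 14908 genes tested). SE is the log2 fold change over the square root of F. Shares carry 95% Wilson intervals and genotype differences of single values an exact two-sided permutation test over the 4 libraries (scipy 1.17.1). Counts of 0 were given a limit of 3 counts. Intervals and limits cover counting error only. Alternatives were other scalings (RLE, upper quartile), other filters, edgeR's exact test, DESeq2 1.42.0, a replicate block, no mitochondrial genes, and each library left out.

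Named genes were Jchain, the constant genes, the 8 heavy and 8 kappa V segments with the most counts, the leading segments of each library, lambda V members, and fixed genes of plasma-cell, B-cell, germinal-centre, antibody-receptor and survival lists, of which a few are not reported here. The members, lists and tests were chosen with earlier results of these data known. Depth limits the V segments most, since many hold fewer than 10 counts in a library.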

Additional observations from a re-analysis of the deposited data

Results flagged for a closer look

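Immunoglobulin sequences outside the 41 genes also gave counts. The 189 V segments that held fewer than 10 counts in all, 66 of them with a count, summed to 133 counts in WT 1, 85 in WT 2, 35 in Zbp1-KO 1 and 42 in Zbp1-KO 2. Among 161 V and D pseudogenes, 1 had counts, 6 in WT 2. The 14 J segments had none.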

How the results depend on the processing

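With 2 libraries per genotype the test can call only large, even differences, and 22 of the 29 V segments hold too few counts for a gene-level test. The number of all genes called was 2, and 41 with every gene of at least 1 count kept, 14 with edgeR's exact test, 9 with DESeq2, 4 without mitochondrial genes, and 0 to 15 with a library left out. The replicate numbers do not pair the samples (the correlation of the deviations of same-numbered libraries was 0.00399), and the fit with a replicate block called 11 genes and no immunoglobulin gene. The number of immunoglobulin genes called was 0, except 2 (Igha and Igkv6-15, both lower in Zbp1-KO) when all genes with a count were kept, where Igha had a log2 fold change of -0.87. The lambda difference of 2.84 percentage points was 11.7 when taken from V segments, and the log2 ratio of effective heavy V segments went from 0.14 to -0.39 at a minimum of 1 count. Under the replicate block the log2 fold changes of Ighg2c (0.19) and Fcgr2b (0.0097) turned positive.

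Leaving out 1 library in turn reversed the sign of 22 of the 35 named genes tested, and the cause was not tested. Their log2 fold changes ranged from -1.28 to 1.03 (Jchain), -3.28 to 1.06 (Igkv1-110), -3.11 to 0.083 (Igkv10-96), -3.09 to 1.45 (Igkv5-43), -3.06 to 2.21 (Igkv5-39), -1.36 to 0.74 (Igkc), -1.60 to 0.79 (Igha), -1.61 to 2.47 (Ighg2c), -1.16 to 1.40 (Ighg2b), -2.26 to 2.96 (Iglv1), -0.73 to 1.90 (Iglc2), -0.21 to 0.13 (Xbp1), -0.32 to 1.26 (Prdm1), -0.84 to 0.19 (Sdc1), -0.99 to 1.11 (Cr2), -0.41 to 0.73 (Bcl6), -0.41 to 0.0061 (Fcgrt), -0.31 to 0.36 (Fcgr2b), -0.14 to 1.18 (Fcgr3), -0.052 to 0.23 (Fcgr4), -0.029 to 1.33 (Tnfsf13b) and -0.22 to 0.20 (Cxcl12). Ighg1 (0.45 to 1.62), Ighg3 (0.78 to 4.08) and Ighm (-0.74 to -0.46) kept theirs, and the log2 ratio of the immunoglobulin share ran from -1.34 to 0.79. For Ighg1 and Ighm, whose CPM values did not overlap between genotypes, leaving out 1 library could not reverse the sign. A library left alone in its group was assumed to vary like the other group, and a group at 0 was set to 3 counts per library.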
